A study of Homo sapiens with 28 samples.

Results

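Accessible chromatin was described here at 8 cell cycle brake genes, the cyclin-dependent kinase (CDK) inhibitor genes CDKN2A, CDKN2B, CDKN2C, CDKN2D, CDKN1A, CDKN1B and CDKN1C and the retinoblastoma gene RB1, in myeloma cell lines. Members were chosen as every region of the series whose nearest transcription start belonged to 1 of these genes, near the start or far from it. This gave 29 of the 154985 autosomal regions, namely 5 for CDKN2A, 2 for CDKN2B, 7 for CDKN2C, 1 for CDKN2D, 4 for CDKN1A, 4 for CDKN1B, 2 for CDKN1C and 4 for RB1. The region that covers the RB1 start was assigned by nearest start to LINC00441, a non-coding gene that begins beside RB1 on the opposite strand. It is therefore not among the 29, but the deposited promoter column names RB1 for it, and it is given as the RB1 start region.

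The assay for transposase-accessible chromatin with sequencing (ATAC-seq) inserts adapters into open DNA, so that the number of reads in a region measures how open and how abundant that DNA is. One library was made from each of 22 untreated human myeloma cell lines, and a further library from 6 of them, Karpas620, KMS27, L363, MM1S, OPM2 and RPMI8226, on day 3 of treatment with 10 µM lenalidomide. Lenalidomide is an immunomodulatory drug that directs the cereblon ubiquitin ligase to degrade the lymphoid transcription factors Ikaros and Aiolos. No line was assayed more than once under a condition, each line is a separate established culture, and no vehicle treatment is named in the labels for the untreated libraries.

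The members act at the step where a cell commits to copy its DNA. The INK4 inhibitors, encoded by CDKN2A (p16INK4a), CDKN2B (p15), CDKN2C (p18) and CDKN2D (p19), bind CDK4 and CDK6 and keep them from pairing with cyclin D, whereas the CIP/KIP inhibitors, encoded by CDKN1A (p21), CDKN1B (p27) and CDKN1C (p57), bind cyclin-CDK complexes of several kinds. Unphosphorylated RB1 protein holds E2F factors inactive, and in myeloma loss of CDKN2C, deletion of the chromosome 13 arm that carries RB1 and high expression of a cyclin D gene are recurrent lesions of this pathway.

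Short stretches of DNA carry the results that follow. The first 4 run from 250 to 11 bases before a transcription start, as RefSeq gives it, and were each found letter for letter in GRCh37. They are the CDKN2C start that lies in the interval lost from the counts of 8 lines, the start of the CDKN2A transcript for p14ARF that was open in 21 of 22 lines, the start of the CDKN2A transcript for p16INK4a that was open in 1 line, and the CDKN1B start. The last is the central 300 bases of a region over an intron and a short exon of CDKN1A, the only 1 of the 12 member regions tested that passed the lenalidomide test. Capitals mark letters of any of 8 motifs sought on both strands, which were the E2F motifs TTTCCCGC and TTTGGCGC, the GC box with letters GGGCGG, the box named by its letters CCAAT, the ETS motif CCGGAAGT, the E-box of letters CACGTG, the TATA box spelled TATAAA and the Ikaros core of letters TGGGAA. No motif contains another, and overlapping matches are marked as 1 run of capitals.
CDKN2C second start, plus strand, chr1:51435667-51435906: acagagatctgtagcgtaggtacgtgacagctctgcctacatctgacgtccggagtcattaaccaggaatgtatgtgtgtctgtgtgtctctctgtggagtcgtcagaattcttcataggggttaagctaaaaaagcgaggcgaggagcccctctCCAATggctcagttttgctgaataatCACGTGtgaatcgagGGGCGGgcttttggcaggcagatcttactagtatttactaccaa
CDKN2A p14ARF start, minus strand, chr9:21995334-21995573: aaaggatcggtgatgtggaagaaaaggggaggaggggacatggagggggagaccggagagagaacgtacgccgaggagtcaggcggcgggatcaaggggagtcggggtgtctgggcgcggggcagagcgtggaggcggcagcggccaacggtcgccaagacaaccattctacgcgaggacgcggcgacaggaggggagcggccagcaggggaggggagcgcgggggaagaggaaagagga
CDKN2A p16INK4a start, minus strand, chr9:21974867-21975106: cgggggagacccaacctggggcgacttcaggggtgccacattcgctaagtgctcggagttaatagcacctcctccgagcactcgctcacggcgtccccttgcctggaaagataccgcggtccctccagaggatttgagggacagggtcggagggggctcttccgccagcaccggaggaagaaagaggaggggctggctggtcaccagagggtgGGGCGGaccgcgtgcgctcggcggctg
CDKN1B start, plus strand, chr12:12870052-12870291: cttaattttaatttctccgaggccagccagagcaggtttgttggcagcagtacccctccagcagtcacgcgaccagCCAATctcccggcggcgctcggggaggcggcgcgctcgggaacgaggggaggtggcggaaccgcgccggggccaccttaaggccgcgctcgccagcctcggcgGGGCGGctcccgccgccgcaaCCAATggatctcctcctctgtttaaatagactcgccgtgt
CDKN1A intron region, plus strand, chr6:36650525-36650824: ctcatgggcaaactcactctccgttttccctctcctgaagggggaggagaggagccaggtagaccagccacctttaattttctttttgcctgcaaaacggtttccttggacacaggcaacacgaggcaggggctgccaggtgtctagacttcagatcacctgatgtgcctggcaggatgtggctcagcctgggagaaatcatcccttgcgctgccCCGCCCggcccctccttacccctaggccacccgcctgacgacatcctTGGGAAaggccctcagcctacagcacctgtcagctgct
A GC box lay in the CDKN2C, p16INK4a and CDKN1B stretches and in the CDKN1A region, but not in the p14ARF stretch, and 41.3% of 34796 RefSeq promoters hold one in the same 240 bases. The CCAAT box, found in the CDKN2C and CDKN1B stretches, was in 31.4% of these promoters, and the E-box of the CDKN2C stretch in 5.99%. The Ikaros core in the CDKN1A region was in 21.3% of the central 300 bases of all regions, and the GC box in 14.7%. Neither E2F motif was in any of the 5 stretches, and no letters shared by all 5 were found among those sought. The 5 stretches had a G and C content of 48.3% in CDKN2C, 67.1% at the p14ARF start, 66.2% at the p16INK4a start, 66.2% in CDKN1B and 58.7% in the CDKN1A region.

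Library totals ran from 1599857 to 5564534 counts in regions in untreated libraries (median 2239819) and from 2168680 to 4248017 in lenalidomide libraries (median 2655490). Levels are given as CPM, the counts in a region divided by the library total in regions and multiplied by 1000000. A line was said to have an own peak where the deposited table of peak numbers was above 0 for it. The start regions of 7 plasma cell genes, among them SDC1, IRF4 and PRDM1, had medians from 17.1 to 73.4 CPM and an own peak in 18 to 22 of the 22 lines. Start regions of 5 B cell, T cell and myeloid genes (MS4A1, PAX5, CD3E, CD3D and CD14) had medians from 0.491 to 3.44 CPM and an own peak in 1 to 3 lines.

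The start regions of the 8 genes had an own peak in most untreated lines, and at 5 of them at least 1 line was below 5% of the median. Per kb of region, the median over the 22 lines was 62.5 CPM for CDKN2A, 52.9 for CDKN2B, 40.2 for CDKN1B, 30.6 for CDKN2D, 27.1 for CDKN1A, 21.9 for CDKN2C, 15.7 for RB1 and 13.7 for CDKN1C. The ranges over lines of neighbours in this order overlapped. In each line the 8 regions were read from the same library, and the order within lines was not tested. An own peak at the start was present in 21 of the 22 lines for CDKN2A, CDKN2B, CDKN2D and RB1, in 19 for CDKN1A, 18 for CDKN1B, 14 for CDKN1C and 13 for CDKN2C. The standard deviation (SD) of log2(CPM + 1) over the 22 lines was largest for CDKN2C at 2.7 and smallest for CDKN1A at 0.53. Its median over the 8 start regions was 1.17, beside 0.61 over 12691 start regions of all genes with a mean of at least 5 CPM. Distances are to the nearest annotated start of the gene, which can lie outside the region named here as its start. Outside the start regions, those 286 bp from a CDKN1B start, 6978 bp from a CDKN2C start and 1403 bp from the CDKN1A start had medians of 16.7, 16.4 and 15.1 CPM. These were close to the CDKN1A start at 16.7. Of all 29 regions, 15 had a median below 5 CPM and 9 had an own peak in a single line.

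**Figure D1:**
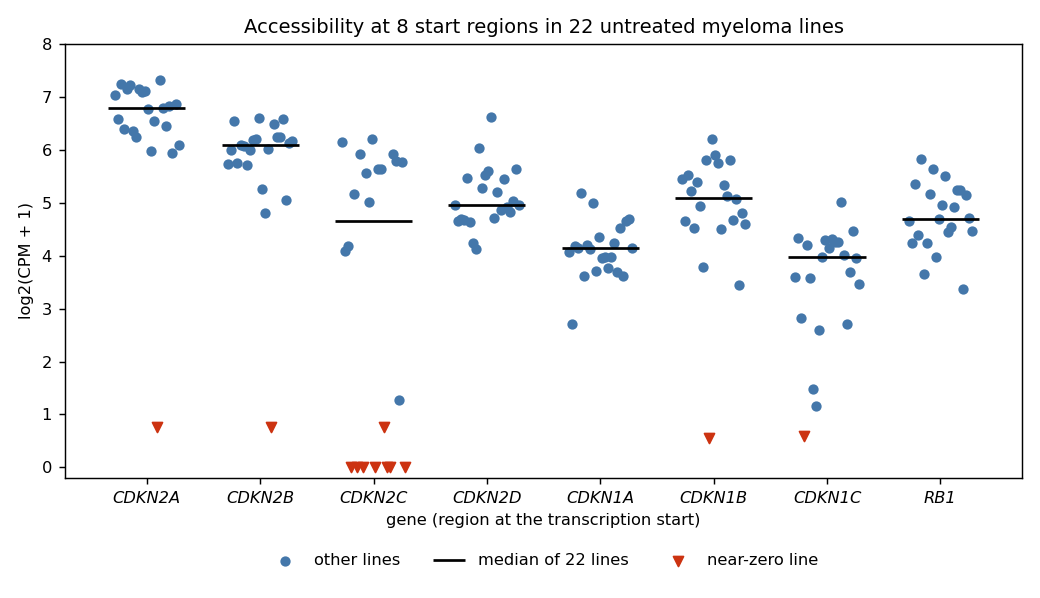
Level of accessibility at the start region of each of the 8 genes, as log2(CPM + 1) on the vertical axis, with 1 point for each of 22 untreated lines, red triangles for near-zero lines and a black bar at the median of the lines. CDKN2C has 8 lines at or close to 0, CDKN2A, CDKN2B, CDKN1B and CDKN1C have 1 each, and CDKN2D, CDKN1A and RB1 have none.

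A line was called near-zero at a region where the median level of the 22 lines predicted at least 20 counts for its library and the observed level was below 5% of that median. Over the 8 start regions, 12 of 176 pairs of line and region (6.82%) were near-zero, and 9 of the 22 lines had at least 1 such start. Of these 12 pairs, 8 were at CDKN2C alone. CDKN2A and CDKN2B had 1 each, both in MM1S, and CDKN1B and CDKN1C had 1 each. Over the start regions of all genes, 0.99% of pairs were near-zero, and over all regions 1.31%. At least 1 near-zero line was present at 5 of the 8 member start regions (62.5%), against 11.2% of 12314 start regions of all genes. Over all 29 members, 14 regions were high enough to be judged in at least 1 line, and 11 of these had a near-zero line, against 11.2% of 39995 regions. Several of these members are neighbours on 1 stretch of DNA and are not separate events. ATAC-seq counts cannot tell apart DNA that is missing from DNA that is present and closed, and no copy number was measured in these files.

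CDKN2C, whose product p18 restrains CDK4 and CDK6 and is needed for normal plasma cell arrest, was near-zero at its start region (chr1:51433660-51434771, over the first exon and its 5′ UTR) in 8 of the 22 lines. Karpas620, KMS12PE, KMS20, KMS26, OCIMY5, OPM2 and XG-6 each had 0 counts there, where the median line predicted from 39.0 in XG-6 to 113 in KMS20. A count of 0 allows up to 3 counts, which is 0.645 CPM in KMS20 and 1.87 CPM in XG-6, for counting error only. MM1S had 2 counts where 70.8 were predicted. RPMI8226 stood just outside the threshold, with 3 counts and 5.83% of the median, and 13 lines had from 16.1 to 72.7 CPM with a median of 49.1. No line lay between RPMI8226 at 1.42 CPM and KMS11 at 16.1 CPM. Among 10749 start regions high enough to be judged in as many lines, 2 (0.0186%) were near-zero in at least 8 lines, the CDKN2C start and that of HLA-K, a pseudogene of the HLA class I cluster.

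The second libraries of the treated lines repeated these levels. After lenalidomide, Karpas620, MM1S and OPM2 had 0 counts at the CDKN2C start, with 62.2, 67.0 and 53.8 predicted, and RPMI8226 had 2. The lines KMS27 and L363, which were open there, had 97 and 75 counts. The 8 near-zero libraries held 1602855 to 4653969 counts (median 2897766) and the other 14 held 1599857 to 5564534 (median 2166411), and the part of depth was not tested. The local level, defined as the median ratio to the median line over the start regions of 50 other genes within 5 Mb, ran from 0.426 to 1.14 in the near-zero lines (median 0.885) and from 0.669 to 1.32 in the others (median 1.01).

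The loss of signal in these lines covered neighbouring regions, with different limits in each line. In OCIMY5 a run of 30 consecutive regions over 635 kb had 0 counts, where 352 were predicted. Karpas620 had 0 of 248 predicted counts over 244 kb, and KMS26 had 0 of 136 over 167 kb. KMS20 had 2 of 394 counts over 185 kb, OPM2 had 4 of 138 over 75.2 kb, and XG-6 had 0 of 118 over 70.5 kb. Each of these 6 runs also took in the start of FAF1, the next gene, which encodes a FAS-associated factor and was itself near-zero in 7 lines. In KMS12PE the run was 32.8 kb with 1 of 218 predicted counts and stopped short of FAF1, where 90 counts were seen and 67.6 predicted. In MM1S only the 2 start regions of CDKN2C, over 2.28 kb, had at most 2 counts each, but the FAF1 start on the other side had 3 counts with 50.1 predicted, and when regions under 10% of the median were also taken in, the run was 39.9 kb. The interval common to all 8 lines was chr1:51433660-51435940, 2.28 kb long, and it holds both CDKN2C start regions and the CDKN2C stretch printed above. Run lengths go from the first to the last region counted, and the limits are not resolved between regions. A region joined a run at a count of 0 or 1 even where few counts were predicted. The last region of the OPM2 run, for example, had 0 counts with 2.05 predicted. The lengths are therefore not least values. The gap between the flanking regions was 16.2 kb for the shorter MM1S run, 98.1 kb in KMS12PE and 725 kb in OCIMY5.

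**Figure D2:**
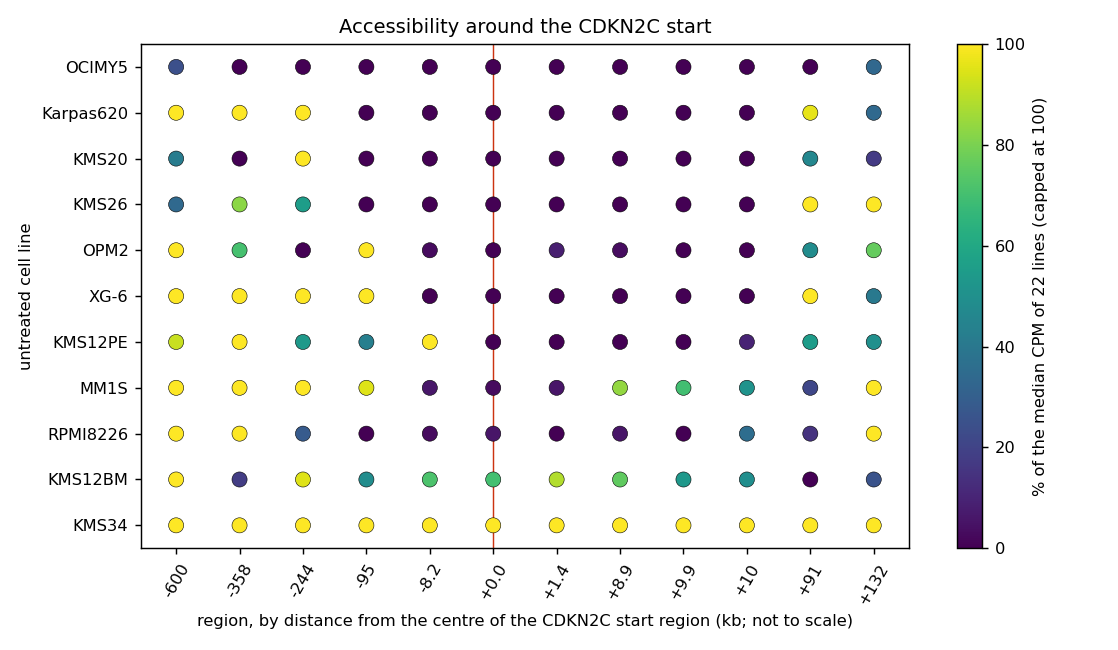
Each row is an untreated line and each dot a region with a median of at least 2 CPM, placed in order by distance in kb from the CDKN2C start region (red line) and coloured by its level in percent of the median of 22 lines, capped at 100. The 8 near-zero lines and RPMI8226 are dark at the start, OCIMY5 over the longest stretch (635 kb), whereas KMS12BM and KMS34 are not. Neighbouring regions differ between these lines. MM1S is not dark at the region 6978 bp beyond a CDKN2C start (83.9% of the median). KMS12PE is not dark at the FAF1 start (90 counts, 67.6 predicted).

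A region 6978 bp beyond a CDKN2C start (chr1:51442595-51443674, between genes) was the highest of its distal regions, with a median of 16.4 CPM and a range from 0 to 52.8. It was near-zero in the same lines as the start except MM1S, which had 40 counts there with 47.7 predicted. RPMI8226 had 2 counts at this region where 34.7 were predicted. The second CDKN2C start region was weaker, with a median of 6.25 CPM and an own peak in 2 lines, and could be judged in 6 lines, 3 of them near-zero. KMS12BM and KMS12PE, which were established from the same patient, differed at this locus, since KMS12BM had 65 counts at the CDKN2C start and KMS12PE had 0 with 95.6 predicted.

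CDKN2A and CDKN2B lie next to each other on the short arm of chromosome 9, and both starts were strongly open in every untreated line but MM1S. CDKN2A encodes, from separate first exons, p16INK4a and p14ARF, an inhibitor of MDM2. The region named CDKN2A start (chr9:21994028-21995767) covers the p14ARF first exon and the start of the antisense RNA CDKN2B-AS1, so its reads cannot be divided between them. It had a median of 109 CPM, with 0.687 CPM in MM1S, 60.4 in RPMI8226 as the next lowest, and 159 in OCIMY5 as the highest. The CDKN2B start (chr9:22008627-22009889), also within CDKN2B-AS1, had a median of 66.8 CPM, 0.687 in MM1S, 27.0 in L363 and 96.1 in KMS34. Over the 22 lines the log2(CPM + 1) levels of the 2 regions had a Pearson r of 0.95, but r was 0.64 over the 21 lines without MM1S. In each line both regions were read from the same library and lie on the same chromosome arm.

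In MM1S, 2 counts were seen at the CDKN2A start where 317 were predicted, and 2 at the CDKN2B start where 195 were predicted. The lenalidomide library of MM1S had 3 counts of 300 predicted at CDKN2A and 0 of 184 at CDKN2B. With regions under 10% of the median taken in, the run was 55.6 kb long (chr9:21974804-22030444), with 6 counts where 554 were predicted. The flanking region on the left had 49 counts with 5.76 predicted. That on the right, near a CDKN2B-AS1 start, was also low, with 8 counts and 47.1 predicted. The first region of the run had 0 counts with only 2.57 predicted, so both limits depend on the rule. A distal CDKN2A region 6899 bp from a start, in an intron and with a median of 7.49 CPM, was also near-zero in MM1S, with 1 count of 21.8 predicted. The local level of MM1S over 22 other start regions within 5 Mb was 0.68, so the depletion was far below that of its surroundings. MM1S was thus near-zero at the starts of 3 INK4 genes, on 2 chromosomes.

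The start of the p16INK4a transcript stood apart from that of p14ARF. Its region (chr9:21974804-21975231, over exon, intron and 5′ UTR of CDKN2A) had a median of 0.884 CPM, and 21 of the 22 lines had between 0 and 4.13 CPM. OPM2 had 34 counts, or 17.7 CPM, and was the only line with an own peak there. Its lenalidomide library had 35 counts, or 15.8 CPM, and the other 5 treated libraries had at most 3 counts. The local level of OPM2 was 1.05 and its level at the p14ARF start was 110 CPM, close to the median line. OPM2 was therefore a line with an open p16INK4a start and with 0 counts at the CDKN2C start. The CDKN2B region 4023 bp from a start of that gene had a median of 0.447 CPM and an own peak in 1 line.

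**Figure D3:**
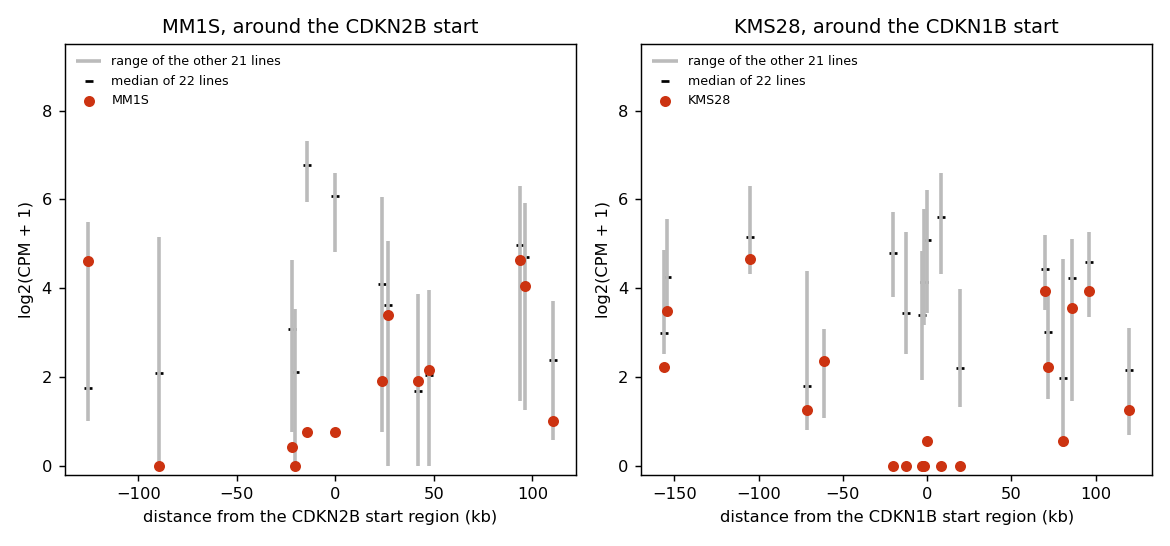
Level as log2(CPM + 1) of regions with a median of at least 2 CPM, by distance in kb from the CDKN2B start (left) and the CDKN1B start (right), with red points for MM1S and KMS28, grey bars for the range of the other 21 lines and black dashes for the median of 22 lines. MM1S is below the other lines at the CDKN2B start and at the CDKN2A start on its left, and KMS28 is at or near 0 over a run of 103 kb, with flanking regions inside or near the range of the other lines.

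CDKN2D, whose product p19 is an INK4 inhibitor that varies with the cell cycle, had a single region, at its start (chr19:10679280-10680261). Its level had a median of 30.1 CPM, a lowest value of 16.5 in KMS26 and a highest of 97.9 in L363. No line was near-zero. The level moved with the local level over 161 start regions within 5 Mb. The ratio to the median line had a Pearson r of 0.91 and a Spearman rho of 0.92 with the local level (n = 22 lines). Without L363 and U266, the lines with the most extreme local levels, r was 0.95. In L363 the local level was 2.02 and the CDKN2D ratio 3.26, and in its lenalidomide library they were 1.89 and 2.61. These points share the library and the chromosome arm, and the part of a shift over the whole library was not tested. In untreated L363 the local level was also above 1 around the other members, from 1.15 at CDKN1B to 1.75 at RB1. Divided by the local level, the SD of log2 levels of CDKN2D fell from 0.58 to 0.25.

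Of the CIP/KIP genes, CDKN1B was near-zero in KMS28 alone. Its product p27 binds cyclin E-CDK2 and holds resting cells out of the cycle. The CDKN1B start (chr12:12869801-12870625) had a median of 33.2 CPM, with 0.464 in KMS28, 9.92 in RPMI8226 as the next lowest and 72.7 in KMS34. KMS28 had 1 count where 71.6 were predicted, and 0 counts at the 2 other promoter regions, where 36.0 and 20.5 were predicted. The run in KMS28 was 103 kb long (chr12:12826263-12929605) with 1 count where 331 were predicted, and its flanking regions lay 130 kb apart. It included the starts of GPR19, an orphan receptor gene, and of an APOLD1 transcript. The flanking regions had 9 counts with 8.75 predicted on the left and 31 with 44.3 predicted on the right, and the local level of KMS28 over 49 start regions within 5 Mb was 0.618. No second library of KMS28 was made.

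CDKN1C, an imprinted gene that encodes p57, had the lowest median per kb and the widest spread of the genes with no run beyond the start region. Its start region (chr11:2906368-2907434) had a median of 14.7 CPM, with 0.509 in KMS12PE and 31.2 in OCIMY5. KMS12PE was near-zero, with 2 counts where 57.6 were predicted. KMS26 had 2 counts, or 8.34% of the median, and KMS21BM 3 counts or 1.79 CPM, so these lines were low without passing the threshold. The loss in KMS12PE covered this region alone, since the region on its left had 12 counts with 2.24 predicted and that on its right 30 with 37.3 predicted. The local level of KMS12PE was 0.94. KMS12BM had 23 counts, or 6.05 CPM. The distal CDKN1C region, 2918 bp from a start of that gene, had a median of 0.571 CPM.

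CDKN1A, whose product p21 is induced by p53 and halts cells after DNA damage, was present in every line. Its start region (chr6:36646183-36646796) had a median of 16.7 CPM, a lowest value of 5.51 in KMS11 and a highest of 35.3 in KMS18. A region 1403 bp downstream had a median of 15.1 CPM and a range from 7.81 to 41.2. Another region, 3734 bp downstream (chr6:36650283-36651065, over an intron and a short exon with 5′ UTR), varied more, with a median of 9.84 CPM, a lowest value of 0.433 in KMS34 and a highest of 41.6 in RPMI8226. Its SD was 1.4 on the log2 scale against 0.53 at the start, and 9 lines had an own peak. KMS34 was near-zero there, with 1 count of 22.7 predicted, while its start region had 19.5 CPM.

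RB1, the pocket protein that CDK4 and CDK6 phosphorylate, had an own peak at its start (chr13:48877406-48878987) in 21 of the 22 lines, PE1 being the exception with 15 counts, and no line was near-zero. The level had a median of 24.9 CPM, with 9.38 in PE1 and 11.6 in KMS20 as the lowest values and 55.5 in KMS18 as the highest. It followed the local level of 44 start regions, with a Pearson r of 0.89 and a Spearman rho of 0.83 (n = 22 lines), and an r of 0.83 without KMS18 and KMS27. The local level was 0.756 in PE1 and 1.87 in KMS18, and divided by it the SD of log2 levels fell from 0.63 to 0.34. The 4 regions assigned to RB1 lie within its introns, had medians from 0 to 1.21 CPM and an own peak in 1 to 4 lines. For the remaining genes the Pearson r with the local level was 0.73 for CDKN1B, 0.71 for CDKN1A, 0.61 for CDKN2B, 0.58 for CDKN2A, 0.4 for CDKN2C and 0.27 for CDKN1C. Without the 2 lines of most extreme local level, that of CDKN1A was 0.37 and that of CDKN1C 0.52.

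**Figure D4:**
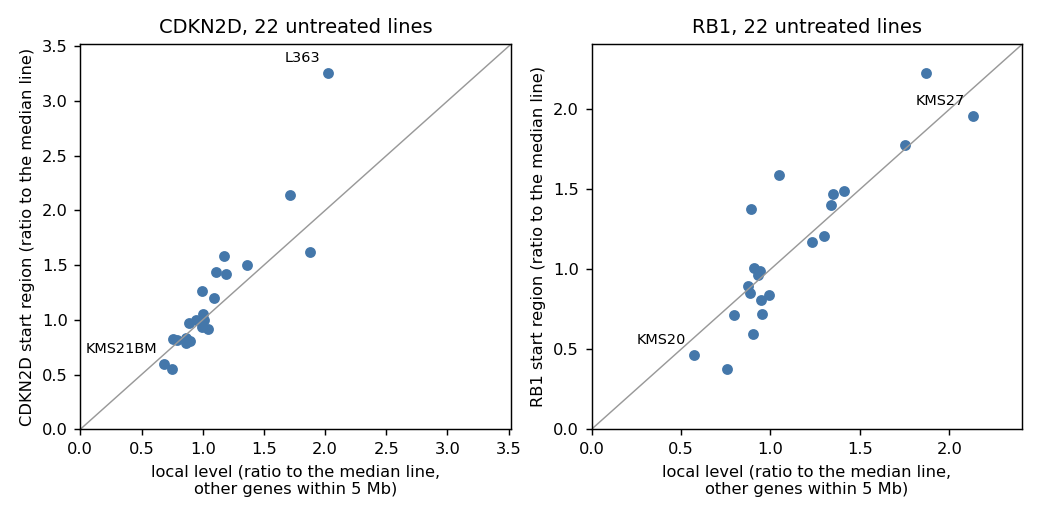
Ratio of the CDKN2D (left) and RB1 (right) start region to the median line, on the vertical axis, against the local level of other genes within 5 Mb, on the horizontal axis, with 1 point per untreated line and a grey line of equal values. Points rise with the local level, but some lie off the line of equal values, as L363 at 2.02 and 3.26 for CDKN2D and PE1 at 0.756 and 0.376 for RB1.

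Between members, the pattern over lines was shared by few pairs. CDKN1A and RB1 had a Pearson r of 0.63, CDKN2D had an r of 0.46 with both CDKN1C and RB1, and the other pairs apart from CDKN2A and CDKN2B lay between -0.16 and 0.31. Among start regions over 5 Mb away, that most like CDKN2D was HAUS8 (r = 0.92) and then RAB8A (0.89), both on chromosome 19. PDS5B, also on chromosome 13, was most like RB1 (0.88), followed by PPP1R11 (0.87). CCDC12 (0.78) and HDAC11-AS1 (0.76) were most like CDKN1A, and NUP62 (0.83) and POLD1 (0.75) most like CDKN1C, with 0.74 and 0.7 when KMS12PE was left out. For the other members r was lower without the near-zero lines, by different amounts. ZNF584 had an r of 0.85 with CDKN2A and 0.76 with CDKN2B, which became 0.11 and -0.25 without MM1S. ZNF566 with CDKN2A went from 0.79 to 0.48 and FCHO1 with CDKN2B from 0.75 to 0.44. CDK8 with CDKN1B went from 0.81 to 0.25 and AC016683.5 from 0.82 to 0.63 without KMS28. SEC61A1 with CDKN2C went from 0.71 to 0.19 and COPG1 from 0.69 to 0.6 over the 14 lines that were not near-zero. These 14 include RPMI8226, at 5.83% of the median, and r without it was not computed. These are descriptions over 22 lines, in each of which both regions were read from the same library. Each start region of another gene was picked as 1 of the 2 with the highest r among 12520 to 12664 compared. Such a choice favours high values by itself, and how high they run without a shared pattern was not tested.

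Lenalidomide was compared with no treatment in the 6 lines with both libraries, to ask which of these regions opened or closed with the drug. The CDKN1A region 3734 bp downstream of the start was raised, and no other member region passed the test. It had 10.8 CPM in untreated Karpas620 and 45.0 after lenalidomide. In KMS27 it went from 20.9 to 51.3 CPM and in MM1S from 8.93 to 28.7. RPMI8226, which had the highest untreated level, went from 41.6 to 58.4 CPM. The level was low in L363 and OPM2, where 4 counts (2.04 CPM) became 8 (3.69 CPM) and 5 counts (2.61 CPM) became 10 (4.52 CPM). All 6 pairs were higher after the drug, although the untreated and treated levels overlapped between lines. By edgeR's quasi-likelihood test with the cell line as a block, the log2 change was 1.25 (SE 0.185), which is 2.39-fold, with a Benjamini-Hochberg adjusted p of 2.81e-05 over 37732 regions. The gain ranged from 0.48 in RPMI8226 to 1.97 in Karpas620 on the log2(CPM + 1) scale.

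**Figure D5:**
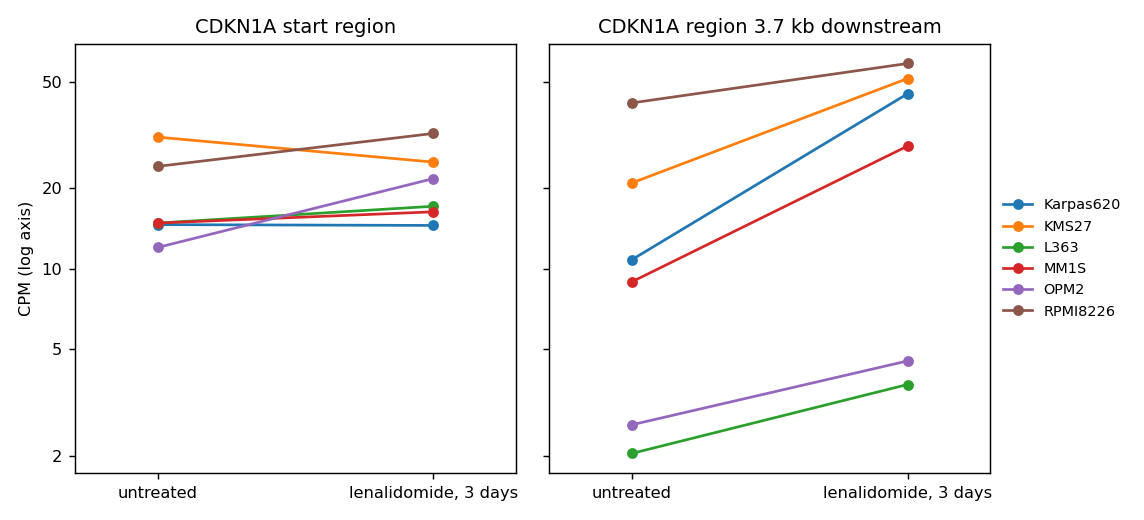
Level in CPM, on a log axis, of the CDKN1A start region (left) and of the region 3734 bp downstream (right) in untreated and lenalidomide libraries, with a line joining the 2 libraries of each of 6 cell lines. The downstream region is higher after lenalidomide in all 6 lines, and the start region is higher in 4 and lower in 2.

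The start of CDKN1A itself gave no call. Its level went from 12.0 to 21.7 CPM in OPM2 and from 24.1 to 32.0 in RPMI8226, from 31.0 to 25.0 in KMS27, and changed by less than 3 CPM in Karpas620, L363 and MM1S. The log2 change was 0.19 (SE 0.167, edgeR adjusted p = 0.634), and that of the region 1403 bp downstream was 0.08 (SE 0.163, edgeR adjusted p = 0.866). The difference between the CDKN1A regions was not tested.

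Of the 29 member regions, 12 had enough counts to be tested, 1 was raised (8.33%) and 0 were lowered, while over all 37732 regions 4.17% were raised and 1.22% lowered, 5.4% in either direction. By edgeR, 2 of the 12 had an unadjusted p below 0.05, and DESeq2 also called 1 raised and 0 lowered. The median log2 change was 0.02 over the 12 and -0.01 over all regions. With 12 tests a single call is close to the background share. The other 17 regions were too low to be tested in these 12 libraries.

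Of the member start regions, 7 were tested and none was called, where 1.89% of 12427 start regions of all genes were raised and 0.523% lowered. The CDKN2A start was lower in 5 of 6 pairs and went from 61.7 to 42.9 CPM in L363 and from 110 to 82.3 in OPM2. The pair that was higher was MM1S, with 2 and 3 counts. Its log2 change was -0.23 (SE 0.0948, edgeR unadjusted p = 0.0203, adjusted p = 0.177). CDKN2B was higher in 4 of 6 pairs, with a log2 change of 0.18 (SE 0.123, edgeR adjusted p = 0.491), and the RB1 start in 5 of 6, with 0.17 (SE 0.122, edgeR adjusted p = 0.526). L363 had the largest gain at RB1, from 44.4 to 71.5 CPM, whereas RPMI8226 went from 34.5 to 26.4. The log2 changes were -0.13 for CDKN2D, -0.12 for CDKN1B and -0.01 for CDKN1C, with edgeR adjusted p from 0.595 to 0.984. At CDKN1B the level went from 9.92 to 15.5 CPM in RPMI8226 and from 39.5 to 26.9 in MM1S.

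The CDKN2C start was too low to be tested, since 4 of the 6 lines had at most 3 counts in either library. The lines with signal went from 46.2 to 33.2 CPM (KMS27) and from 49.0 to 34.6 CPM (L363). At the region 6978 bp beyond a CDKN2C start, KMS27 went from 61 to 80 counts and L363 from 63 to 52. That region was tested and its log2 change was -0.18 (SE 0.253, edgeR adjusted p = 0.799). Of the lines near-zero at a start, Karpas620, MM1S and OPM2 had a lenalidomide library, and their counts at those starts were from 0 to 3 after the drug and from 0 to 2 before it.

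Start regions of other genes of the G1 and S phase pathway were examined from a list of 34 genes, of which 29 had a start region by the same rule, and all 29 were tested. Lenalidomide raised 2 of them and lowered 1, where 1.89% of the start regions of all genes were raised and 0.523% lowered. E2F7, an E2F repressor, changed by 0.43 (SE 0.0818, edgeR adjusted p = 0.000862), and CHEK1, a checkpoint kinase, by 0.33 (SE 0.0919, edgeR adjusted p = 0.0272) on the log2 scale. MDM2, the ligase that degrades p53 and a p53 target itself, fell by 0.31 (SE 0.0746, edgeR adjusted p = 0.00943). The median over the 29 was -0.09. The other 26 did not pass, and among them TFDP1, the E2F partner, had a log2 change of -0.48 with an adjusted p of 0.0537. In untreated lines, the start of CCND2, the cyclin D2 gene, was near-zero in KMS12BM, KMS12PE and KMS21BM, and that of E2F7 in KMS34 and PE1, which is 2 of 29 genes where 11.2% of the start regions of all genes had a near-zero line. The remaining 27 had no near-zero line, CDK4 and CDK6 with medians of 71.4 and 70.8 CPM among them.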

How the data were processed

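ATAC-seq was performed on 22 untreated myeloma lines and on 6 of them after lenalidomide. The authors aligned reads to GRCh37 with Bowtie2 2.2.6, marked putative PCR duplicates with SAMtools 1.7, called peaks per library with MACS2 2.1.0.20151222 at a q of 0.01, merged them into 154985 autosomal regions and deposited a raw read count per region and library. A shift of read ends for the transposase, and whether marked duplicates were left out of the counts, are not given in the sources used here, and PCR reads are not independent molecules. The deposited RPM values are these counts divided by the library total and scaled, and equal the CPM computed here. A further table deposited by the authors holds whole numbers per region and library, read here as how many peaks of each library fall in a region, which the files do not define.

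Counts were analysed in Python 3.11.15 with pandas 2.3.3 and in R 4.3.3 with edgeR 4.0.16 (TMM, filterByExpr by condition, a quasi-likelihood test with a term for each line, Benjamini-Hochberg adjustment over 37732 regions, threshold 0.05), after tests on simulated data, and with DESeq2 1.42.0 as an alternative. The line named in the labels pairs the libraries. Deviations from the condition means correlated at 0.83 to 0.9 between the 2 libraries of a line and at most at 0.11 with another line. With 1 library per line and condition, p-values of the fit with a term for each line measure how the change differs between lines. That spread includes the noise of single libraries. Named were all members with their start region (the region nearest the transcription start, within 1000 bp) and highest distal region, every near-zero or called member region and the 2 start regions most like each member. Runs joined neighbouring regions with at most 1 count, or under 10% of the median, outward from a near-zero start. Alternatives were other scalings, filters, pseudocounts, near-zero thresholds, no block and each line left out. Members, gene lists and tests were chosen with earlier results of these data known. The genome and RefSeq promoter sequences were matched by letters, with 7 of 8 members in the promoter table.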

Additional observations from a re-analysis of the deposited data

How the results depend on the processing

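The 1 member region raised by lenalidomide, the CDKN1A region 3734 bp downstream of the start, kept its call with DESeq2 (log2 change 1.27, adjusted p = 6.76e-05), without TMM, without the filter and without each line in turn (1.05 to 1.57, edgeR adjusted p from 1.51e-06 to 0.00155). No member region was called (0) when the cell line was not used as a block, where its log2 change was 1.15 with an edgeR adjusted p of 1 and no region of any gene was called (440 had an unadjusted p below 0.05), and 0 with at least 10 counts required in each library, which removed it from the test. The pathway list had 3 calls, 1 with DESeq2, 0 without the block and 2 to 5 when a line was left out, with 5 without RPMI8226. The number of member regions lowered and of start regions called was 0 under every alternative, at most 8 start regions being tested.

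The 12 near-zero pairs were 10 at 2% of the median, 14 at 10%, where RPMI8226 at CDKN2C and KMS26 at CDKN1C were added, 12 with a predicted count of at least 10 and 12 with TMM. The CDKN1C call was absent at 2%. The median SD of the 8 starts was 1.17, or 1.43 with a pseudocount of 0.1, 1.17 with TMM and 1.07 divided by the local level. Among the 8 lines near-zero at CDKN2C, the 10% allowance changed only the MM1S run, from 2.28 to 39.9 kb. Both lengths lie below the median run of 121 kb, so that the median could not show this change. Over all regions, the raised calls were 1575 with edgeR and 726 with DESeq2, and the lowered calls 461 and 113. Counts in 1 library per line limit each level to counting error, the lowest judged starts having about 20 predicted counts, and neither copy number nor the spread between cultures of a line can be had from these files. None of 18 groups of 6 values held a sample past the Dixon limit.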
